A study of Mus musculus with 4 samples.

Results

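E2A ChIP-Seq peaks of iNKT thymocytes from L-DKO mice are described here across genes. The members are all peaks of the deposited list in which the iNKT E2A library was called against its own input, 1467 in sequence that the mm9 assembly holds once and 49 in sequence that it holds in several copies. They stand among 19048 peaks in the series, of which 17532 are those of DP cells. L-DKO mice are Id2 f/f Id3 f/f LckCre+, so both cell types lack Id2 and Id3, with the deletion driven by Lck-Cre in developing T cells, and no Id-sufficient library is among the samples. The mice were 3 to 5 weeks old, on a C57BL/6 or mixed C57BL/6 and 129 background, and the records describe pools of 3 to 4 mice. iNKT cells were sorted as CD1dTet+ TCRβ+ and DP cells as CD1dTet- CD4+ CD8+, and chromatin was precipitated with the E2A antibody V-18. Each cell type has 1 E2A library and 1 input library, so the spread between replicates is unknown and the cell types were not tested against each other. Every interval given is a 95% Wilson interval for counting error only. The lists hold a position and a MACS score per peak and no read counts, so the depth is unknown. Scores were used only as ranks within the list, with rank 1 the highest. The lowest score was 50, which corresponds to a p-value of 1e-05. Peak lists contain no expression values, so the cell type given by the label was not checked against expression of its markers.

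E2A, encoded by Tcf3, is a basic helix-loop-helix protein that binds DNA as a dimer at E-boxes, sequences of the form CANNTG. Id2 and Id3 lack the basic region, pair with E proteins and keep them off DNA. iNKT cells are T cells with an invariant Vα14-Jα18 receptor. They are selected by CD1d on DP thymocytes and rely on the transcription factor PLZF, encoded by Zbtb16.

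The E-box with the core CAGGTG, or CACCTG on the other strand, was the E-box class most often found at iNKT peaks. In the central 200 bp it was found at 52.8% of peaks, against 14.9% of windows of the same length 2 kb to either side. Whole peaks, with a median width of 1040 bp, were not set beside such a background. CAGGTG lay somewhere in 1226 peaks, or 80.9% of the list, at a median of 61.0 bp from the midpoint for the nearest copy. The following stretches of mm9 show that copy, in capitals, with 10 bases on either side and written on the strand that reads CAGGTG. They are shown for high-ranked peaks away from gene starts, chosen among those with a copy in the central 200 bp:
Twsg1, rank 5, chr17:66311236-66311261, plus strand: tcatagctgaCAGGTGtaaagtgtga
Slc9a9, rank 9, chr9:94560306-94560331, minus strand: ggaagtccagCAGGTGcttagagggg
Ppm1h, rank 14, chr10:122195616-122195641, minus strand: ctgtggtggcCAGGTGtcccagcttg
Camta1, rank 18, chr4:151083573-151083598, minus strand: gtcacacccaCAGGTGcacagcatgg
Acoxl, rank 25, chr2:127753429-127753454, plus strand: atgtcacctgCAGGTGtgtgagcctg
Pik3r5, rank 28, chr11:68276342-68276367, minus strand: acacaaagaaCAGGTGttacatctgt

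The same stretches are given for peaks at genes of the T cell lists, since these carry the account of T cell genes below:
Bach2, rank 62, chr4:32345281-32345306, plus strand: ccggctgccgCAGGTGgtcaggcggg
Etv5, rank 114, chr16:22396251-22396276, plus strand: acaaggattcCAGGTGaggacccgag
Ccr9, rank 144, chr9:123666039-123666064, plus strand: aaaaagcagcCAGGTGgcagcggggg
Lig4, rank 176, chr8:9975405-9975430, minus strand: gatacagtccCAGGTGgcttatcttg
Cd247, rank 247, chr1:167774698-167774723, minus strand: acatatccagCAGGTGgagagtcacc
Ctla4, rank 275, chr1:60967893-60967918, plus strand: ctaatcagtaCAGGTGctttcagaag
Hivep3, rank 725, chr4:119631986-119632011, minus strand: cctgctccttCAGGTGtacctgctta
Themis, rank 823, chr10:28415038-28415063, plus strand: atgtagtttcCAGGTGcagccgtgac
Ifng, rank 987, chr10:117877868-117877893, plus strand: aagaatggcaCAGGTGggcacagcgg
Id3, rank 1176, chr4:135683453-135683478, plus strand: ttggtgcgacCAGGTGtggcggtatc
Zap70, rank 1277, chr1:36829389-36829414, plus strand: aagccagggcCAGGTGctacttcctt

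The iNKT peaks lay mostly away from promoters. Of all peaks, 711 were intergenic, 649 were in introns, 67 were in exons and 89 had their midpoint within 1 kb of a protein-coding start site. Promoter peaks were thus 5.87% of the list (4.80 to 7.17), while such sequence makes up 1.65% of the assembled bases. Introns held 42.8% of the peaks and 35.2% of the bases, and intergenic sequence held 46.9% of the peaks and 60.5% of the bases. The median distance to the nearest protein-coding start was 31.3 kb, with quartiles of 12.5 and 79.0 kb, and 44.7% of midpoints lay upstream of that start. The DP list had a promoter share of 13.7% (13.2 to 14.2), but among as many of its highest-ranked peaks as the iNKT list holds the share was 5.94% (4.85 to 7.24). At equal list length the promoter shares of both cell types thus had overlapping intervals. In contrast, 19.8% of iNKT peaks (17.9 to 21.9) lay over 100 kb from any start, against 15.2% (13.5 to 17.1) of the highest-ranked DP peaks. Between 1 and 10 kb the shares were 16% (14.3 to 18) and 20.8% (18.9 to 23.0).

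**Figure D1:**
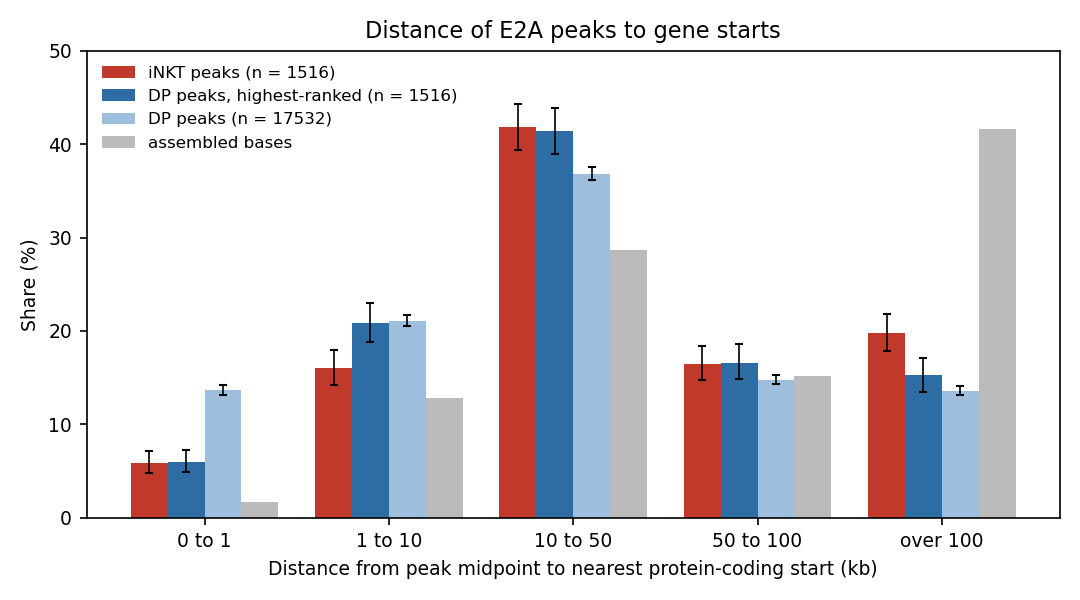
Share of peaks in percent (y axis) by distance from the peak midpoint to the nearest protein-coding start in kb (x axis), for the iNKT list, the highest-ranked DP peaks of the same number and the full DP list, with the share of assembled bases in gray. Bars on the peak shares are 95% Wilson intervals. The iNKT and highest-ranked DP peaks have close shares within 1 kb (5.87% and 5.94%), and the iNKT peaks have the larger share over 100 kb.

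Each peak was cut into words of 31 bases, and a peak whose typical word, by the median, occurs at 1 place in the assembly was called single-copy. This held for 1467 peaks. The 49 multi-copy peaks are described first because they carry high ranks: 9 of them stood among the 100 highest ranks. A block of 14 lay in the first assembled sequence of chromosome 9, between 2999906 and 3038759, over a run of predicted genes such as Gm10722 and Gm10717. Another 4 peaks, of which 3 were multi-copy, lay at chr2:98502196-98507901 over Gm10801 and Gm10800, and 3 lay on chromosome 12 with Ighv1-73 as the nearest gene. Only 8 of the 49 held CAGGTG or CAGCTG in their central 200 bp, and 32 overlapped no DP peak. Over the whole list 1050 peaks, 69.3% (66.9 to 71.5), overlapped a DP peak, and among single-copy peaks 70.4% (68.0 to 72.7) did, which are the shares to set beside the overlap counts given for smaller groups. Of the 89 promoter peaks, 12 were multi-copy, and 9 of these were in the chromosome 9 block.

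**Figure D2:**
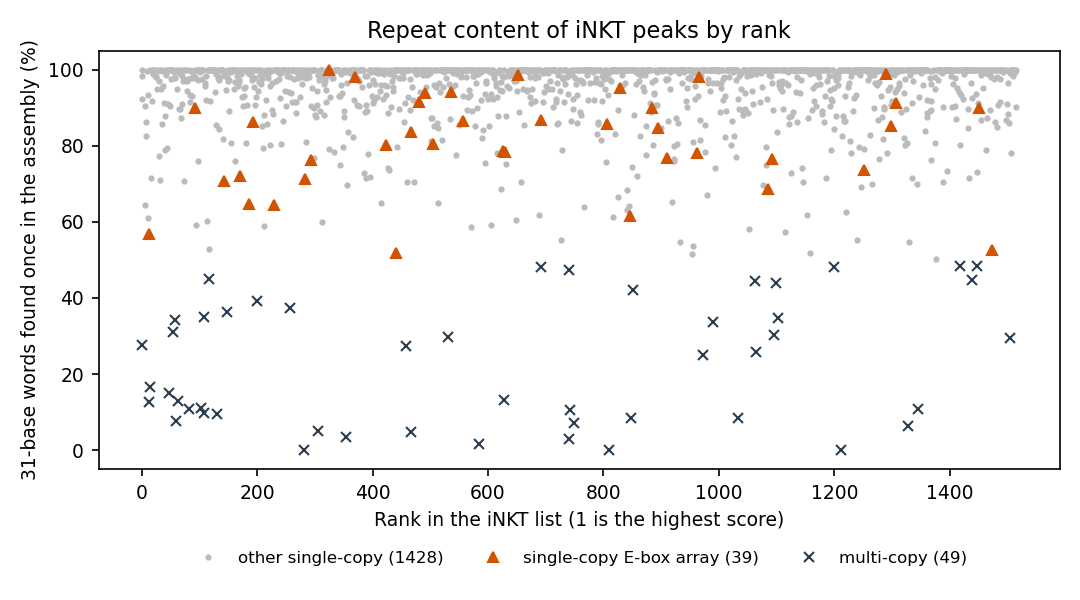
Percent of the 31-base words of each peak that occur once in the assembly (y axis) against the rank of the peak (x axis). Gray points are single-copy peaks, orange triangles are single-copy peaks with 6 or more CAGGTG cores in their central 200 bp and crosses are the 49 multi-copy peaks, which include high ranks.

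The 20 highest-ranked single-copy peaks, which reach down to rank 23, were 11 intergenic peaks, 8 intronic peaks and 1 promoter peak. Of these, 19 overlapped a DP peak, 17 held CAGGTG within the peak and all 20 held CAGGTG or CAGCTG. In the central 200 bp, 10 of the 20 held CAGGTG. Only 4 lay within 10 kb of a start and 7 lay over 100 kb away. A pair of peaks sharing rank 1, chr11:45047456-45050212 and chr11:45050227-45052687, lay 617 and 614 kb from Clint1, the nearest protein-coding start. The promoter peak, also rank 1, covered Pgk1 (chrX:103381608-103383033), which encodes the glycolytic enzyme phosphoglycerate kinase. Its sequence held 1 CAGCTG and no CAGGTG. Twsg1, which encodes a BMP-binding secreted protein, had a peak 10.7 kb upstream with 4 CAGGTG cores in its centre. Slc9a9, a sodium-proton exchanger gene, had a peak 9.98 kb upstream with 4 such cores and 13 in the whole peak. Intronic peaks at rank 14 in Ppm1h, a protein phosphatase gene, at rank 18 in Camta1, a transcription regulator gene, and in an intron upstream of Fkbp11 at rank 7 lay 79.8, 152 and 15.7 kb from a start. Further peaks were nearest to Dyrk1a (rank 6), a kinase gene, B4galt1 (rank 10), a galactosyltransferase gene, and Actr3 (rank 11), which encodes a subunit of the actin-nucleating Arp2/3 complex. The peaks by Dyrk1a and Actr3 were rich in the other core, with 38 and 24 copies of CAGCTG. Lower in this group stood peaks by Arfgap2 (rank 17, inside 1110051M20Rik), Ubox5 (rank 19), Chrac1 (rank 20, inside Eif2c2, an Argonaute gene), Lrrc4 (rank 21), Kif5b (rank 22, a kinesin gene) and Rabggta (rank 23, a Rab prenylation enzyme gene). The peak in Sec14l5 (rank 16) was the member without a DP overlap. Some of these peaks were repetitive although single-copy by the median: in 6 of the 20, less than 90% of the words occurred once. The rank 8 peak, chr17:39979491-39985916, was 6426 bp wide, the widest of the list, had a GC content of 76.0% in its centre, and overlapped the annotated pseudogene AY036118.

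Each midpoint was given to the closest protein-coding start among genes that contained it, counting as part of a gene the 30 kb before it and the 5 kb after it. By this rule 1091 peaks (72.0%) went to 956 of 22208 genes, so the background share of genes called was 4.3%, or 4.2% with single-copy peaks alone. Of these genes, 842 had 1 peak, 96 had 2 and 18, or 0.0811% of all genes, had 3 or more. Among the 425 peaks without a protein-coding gene, 21 lay in the body of a gene of another type, 13 of them in lincRNA genes, and 177 lay over 100 kb from any protein-coding start.

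The gene with the most peaks was Dgkd, with 5. It encodes a diacylglycerol kinase, an enzyme that turns diacylglycerol, a second messenger of TCR signaling, into phosphatidic acid. Its peaks ranked 38, 119, 943, 1152 and 1224. The highest lay 6.03 kb upstream (chr1:89743003-89744652) and the next 46.7 kb into the gene. All 5 held a CAGGTG and overlapped a DP peak, and the DP list had 9 peaks at Dgkd. A further iNKT peak 25.1 kb upstream fell in an exon of the neighboring gene Sag, giving a cluster of 6 within 80.0 kb. Rps6ka2, which encodes a ribosomal S6 kinase of the ERK pathway, had 4 peaks, at ranks 423, 732, 739 and 1022. The best-ranked of them held 16 CAGGTG cores.

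With 3 peaks each, Acoxl (best rank 25), Pik3r5 (28), Spats2l (96), Zfp13 (165), Gramd3 (184), Acsf3 (222), Pgpep1l (294) and Ikzf1 (330) came next. Pik3r5 encodes the p101 regulatory subunit of phosphoinositide 3-kinase gamma. Its peaks, at ranks 28, 103 and 917, lay within 12.7 kb of each other, from 19.2 to 30.7 kb into the gene. Ikzf1 encodes Ikaros, a zinc finger protein of lymphocyte development. Its peaks lay 6.09 kb upstream (chr11:11578426-11579416, rank 424) and 31.6 and 40.9 kb into the gene (ranks 330 and 722). All 3 Ikzf1 peaks overlapped a DP peak and held at least 1 CAGGTG, though none within the central 200 bp. The 18 genes held 57 peaks in all, of which 49 overlapped a DP peak, beside 69.3% of the list. They were long genes, with a median length of 97.3 kb against 15.5 kb for all protein-coding genes and 58.5 kb for all genes with an iNKT peak. A longer gene offers more sequence to the rule, and the part of length in these counts was not tested.

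When midpoints no more than 50 kb apart were joined, 30 clusters of 3 or more peaks formed, 26 of them made only of single-copy peaks. Those 26 held 84 peaks, and 75 of these overlapped a DP peak, beside 70.4% of single-copy peaks. Besides Dgkd, 3 such clusters had 4 peaks, by Rpl11 and Id3, by Actr1b and Zap70, and by Zfp13 and Zscan10. At Id3, which is itself deleted in these mice, the cluster ran from 61.5 to 15.9 kb upstream (chr4:135636756-135684060), with ranks of 238, 85, 377 and 1176. All 4 of these peaks overlapped DP peaks, and no iNKT peak lay on the Id3 gene. Another peak 34.1 kb downstream of the Id3 start, rank 254, lay in an intron of E2f2, a cell cycle transcription factor gene. At Zap70, which encodes the kinase that binds the phosphorylated TCR complex, only 1 peak lay inside the gene, at rank 1277. The other members of that cluster lay 38.4 kb upstream by Actr1b (rank 373) and 35.7 and 69.7 kb downstream of the Zap70 start, in Tmem131 (ranks 110 and 972). The high ranks at both loci thus lay outside the T cell gene.

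**Figure D3:**
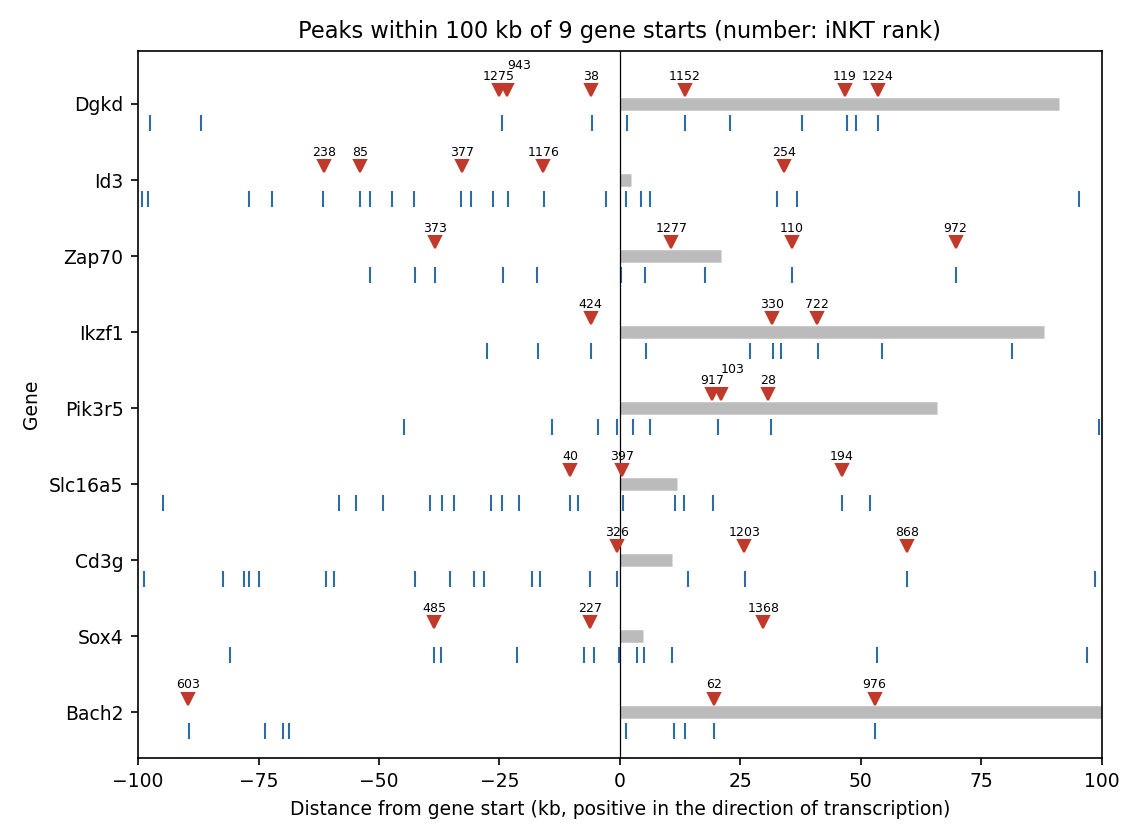
Positions of peaks within 100 kb of the starts of 9 genes, in kb along the direction of transcription (x axis). Red triangles are iNKT peaks with their rank, blue ticks are DP peaks and gray bars are gene bodies, cut at 100 kb. The loci were chosen after their values were seen, and 6 iNKT peaks lie around Dgkd and 5 around Id3, among 11 and 21 DP peaks.

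T cell receptor genes are not protein-coding in this annotation and were examined by position. The Tcra and Tcrd segments, together with the interval up to the start of Dad1, span 1826 kb, in which the DP list had 48 peaks. Over the whole lists there were 11.6 DP peaks for each iNKT peak. The iNKT list had 1 there, at rank 39 (chr14:54846255-54848193). Its midpoint lay 4.45 kb past the end of the constant gene Trac, between Trac and Dad1, where the Tcra enhancer is known to lie. Across the Tcrb segments the DP list had 6 peaks and the iNKT list again had 1, at rank 118 (chr6:41503796-41505444). This peak lay 6.44 kb past Trbc2 and 3.07 kb before Trbv31, an interval that is known to hold the Tcrb enhancer. No iNKT peak fell among the Tcrg segments, where the DP list had 1. The CAGGTG copies of both peaks are printed because these were the only iNKT peaks in the loci:
Tcra 1, chr14:54846251-54846276, plus strand: gttttattacCAGGTGacatgttggc
Tcra 2, chr14:54846442-54846467, plus strand: taacagaggcCAGGTGagccactgtc
Tcra 3, chr14:54847111-54847136, plus strand: cacttccctcCAGGTGtttgggtctg
Tcra 4, chr14:54847311-54847336, plus strand: agcccaaccaCAGGTGcagaaaagaa
Tcrb 1, chr6:41504415-41504440, minus strand: ggagctatggCAGGTGgccattctta
Tcrb 2, chr6:41504743-41504768, plus strand: accatggagaCAGGTGcaataacagc

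The gene lists were chosen with earlier results of these data known. Of 330 genes in the 17 T cell lists, 50 held an iNKT peak, or 15.2% (11.7 to 19.4), beside the background of 4.3%. By the same rule 72.4% of them held a DP peak, beside 28.3% of all genes. T cell list genes had a median length of 23.6 kb, against 15.5 kb for all genes. In a window of 10 kb around the start, which is the same for every gene, 6.06% of the list genes and 1.73% of all genes had an iNKT midpoint. Lists of other cell types and tissues gave 5 of 65 genes, 7.69% (3.33 to 16.8), an interval that overlaps that of the T cell lists. None of 14 B lineage genes and none of 10 thymic epithelium genes held a peak. With so few genes, the interval of each of these lists includes the background share. The myeloid list had 2 of 14, the neighboring integrin genes Itgax and Itgam, and the peak given to Itgax lay 10.2 kb before its start, inside the body of Itgam, so both peaks are at 1 locus. The liver list had 2 of 14 (Tat and Apob) and the neuron list 1 of 13 (Rbfox3). The 50 T cell genes had 59 peaks, 37 of them intronic, 15 intergenic, 5 at promoters and 2 exonic, at a median of 15.9 kb from the start. Of these peaks 49, or 83.1% (71.5 to 90.5), overlapped a DP peak, beside 69.3% of the list. CAGGTG lay within 51 of them but in the central 200 bp of only 25, 42.4% (30.6 to 55.1), beside 52.8% of the list. The stretches printed for genes of the T cell lists, unlike those of Tcra and Tcrb, all come from peaks with a central core. The median rank was 722. The 10 peaks without a DP overlap were those of Pmaip1, Nfil3, Ifng, Itga4, Ezh2, Zap70, Rb1 and Tle1, the higher-ranked peak of Jak1 and the higher-ranked peak of Themis.

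**Figure D4:**
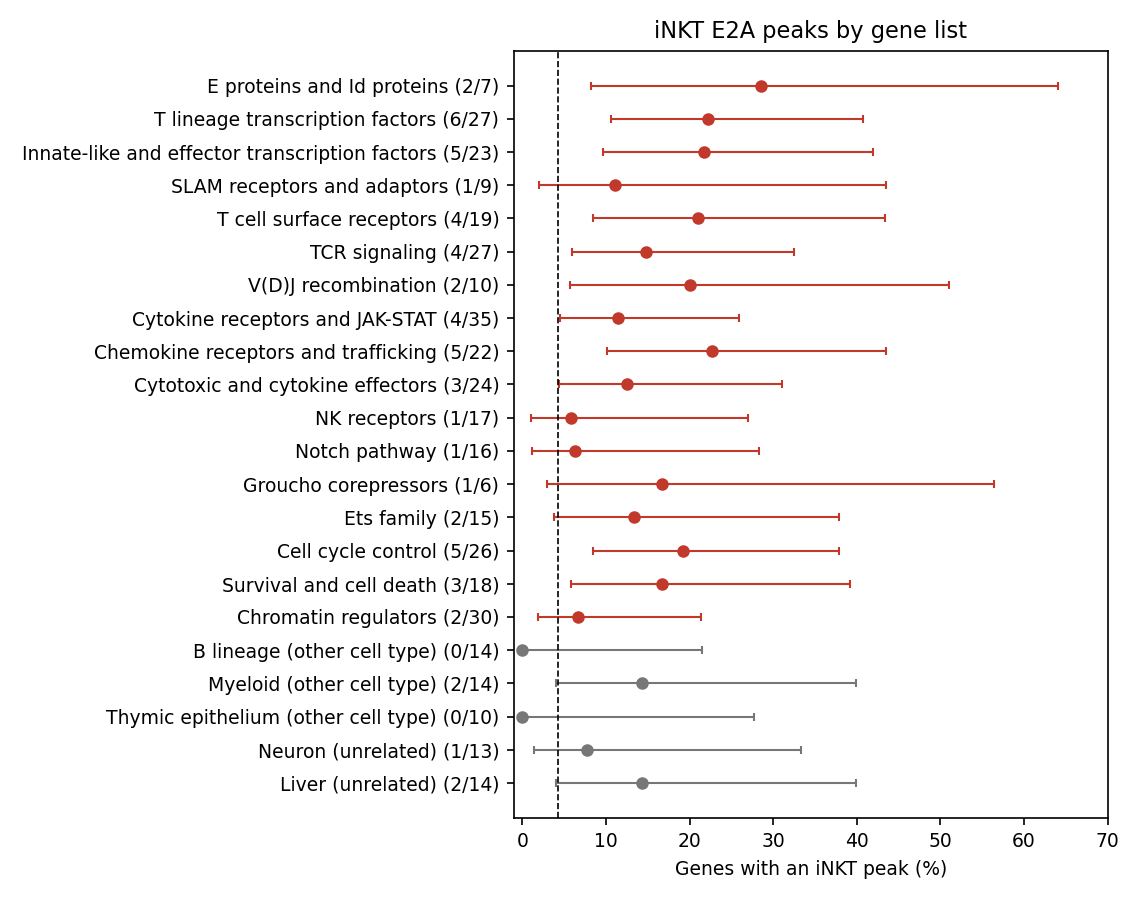
Percent of the genes of each list that hold an iNKT peak (x axis), with 95% Wilson intervals, for T cell lists (red) and lists of other cell types or tissues (gray). The numbers after each list name are genes with a peak and genes matched, and the dashed line is the share of all protein-coding genes, 4.3%. The intervals of all gray lists include the dashed line. The lists were chosen with earlier results of these data known.

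Among T lineage transcription factors, 6 of 27 genes held a peak. Bach2, a repressor that restrains effector differentiation, had the highest rank, 62, at 19.5 kb into the gene (chr4:32344435-32346076), and a second peak at rank 976. Both Bach2 peaks lay closer to the start of D130062J21Rik. Zbtb7b, which encodes ThPOK, the factor of CD4 lineage choice, had a peak at rank 175 over an exon with 9 CAGGTG cores. Sox4 (rank 227), Zfpm1 (rank 286), which encodes the GATA cofactor FOG-1, Ikzf1 (rank 330) and Ets1 (rank 920) completed the group. Innate-like and effector factors gave 5 of 23. Nr4a3, an orphan nuclear receptor induced by TCR signaling, had 2 upstream peaks, at ranks 185 and 877, and the first held 36 CAGGTG cores. Irf4 (rank 518), Hivep3 (rank 725), a zinc finger gene known from iNKT development, Nfil3 (rank 951) and Zbtb16 (rank 1311) had 1 each. The Zbtb16 peak lay in an intron 121 kb from the Zbtb16 start and closer to the start of Nnmt. Of E and Id protein genes, 2 of 7 held a peak, Id3 (rank 1176) and Tcf12 (rank 1450), which encodes the E protein HEB. Both were in the lowest 2 quintiles of the list. Peaks with Id2 as the nearest start lay beyond the window of the gene rule, among them the rank 136 peak, 171 kb upstream.

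The T cell surface list gave 4 of 19 genes. Cd247, the TCR zeta chain gene, had an intronic peak at rank 247, and Ctla4, an inhibitory receptor gene, had a peak at rank 275. The Cd3g peak (rank 326) covered the start of that gene, which encodes the CD3 gamma chain (chr9:44787854-44790436), and the Cd44 peak ranked 928. TCR signaling genes gave 4 of 27. Among them were Lck (rank 791), the Src family kinase gene of the coreceptors, Themis (ranks 823 and 1307) and Zap70 (rank 1277). The Lck peak held no CAGGTG and 1 CAGCTG in its centre. The second Themis peak was an E-box array with 16 CAGGTG cores. SLAM receptors and adaptors, which take part in iNKT selection, gave 1 of 9, Slamf6 at rank 1227.

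Chemokine receptors and trafficking genes gave 5 of 22. The Ccr9 peak, at rank 144, lay in an intron 78.5 kb from the start of this thymic homing receptor gene and closer to the start of Lztfl1. Cd69 (rank 317), whose product retains lymphocytes in tissue, Cxcr5 (rank 498) and Cxcr4 (rank 961, at the promoter) followed. The Itga4 peak (rank 989) was multi-copy and held no CAGGTG. Cytokine receptors and JAK-STAT genes gave 4 of 35. Tgfbr2, a TGF-beta receptor gene, had the highest rank of all T cell list genes, 58, in an intron 36.1 kb from the start. The Il6ra locus had 2 adjoining peaks (ranks 304 and 697), Jak1 had 2 (ranks 350 and 730) and Stat5b 1 (rank 997). Cytotoxic and cytokine effector genes gave 3 of 24, each within 1.5 kb of the start: Gzma, a granule protease gene, at rank 285, Cd40lg at rank 735 and Ifng at rank 987. The Ifng peak lay 310 bp upstream of the start. NK receptors gave 1 of 17, Klrk1 (rank 583), which encodes NKG2D.

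V(D)J recombination genes gave 2 of 10, Lig4 (rank 176), the end-joining ligase gene, and Dclre1c (rank 1392), which encodes the hairpin-opening nuclease Artemis. Cell cycle genes gave 5 of 26. E2f2 (rank 254) and Ccne1 (rank 257), the cyclin E1 gene, ranked highest, and Ccnd3 (rank 670), Cdkn1b (rank 861) and Rb1 (rank 1358) followed. Survival genes gave 3 of 18, all encoding proapoptotic BH3 proteins: Pmaip1 (rank 233), Bcl2l11 (rank 819) and Bid (rank 834). Ets family genes gave 2 of 15, Etv5 (rank 114) and Ets1. The Notch pathway gave 1 of 16 (Maml3, rank 441, an array of 37 cores) and Groucho corepressors 1 of 6 (Tle1, rank 1389). The Maml3 peak lay in an intron 321 kb from the Maml3 start and closer to the start of Gm10729. Chromatin regulators gave 2 of 30. Arid1b, a subunit gene of the BAF remodeling complex, had 3 intronic peaks from rank 656 to 907, and Ezh2, the Polycomb methyltransferase gene, had 1 at rank 972. Among the T cell lists, the intervals of the SLAM, NK receptor, Notch, Groucho, Ets and chromatin lists include the background share.

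Among the 77 single-copy promoter peaks, the 10 highest-ranked were at Pgk1 (rank 1), A630091E08Rik (44), Zfp651 (48), 4921504E06Rik (77), Nsg2 (151), Cpsf4l (171), Cd2ap (205), Psmd12 (231), Rbbp5 (264) and Gzma (285). Cd2ap encodes an adaptor of the T cell adhesion molecule CD2, Psmd12 a proteasome subunit and Rbbp5 a subunit of H3K4 methyltransferase complexes. Of the 77 peaks, 60 covered the start itself and 71 overlapped a DP peak, beside 70.4% of all single-copy peaks. CAGGTG lay in the central 200 bp of 30 promoter peaks, 39.0% (28.8 to 50.1), against 55.1% (52.5 to 57.7) of the other single-copy peaks. CAGCTG lay in 19.5% (12.2 to 29.7) against 32.2% (29.8 to 34.7). The median GC content of the central window of single-copy peaks was 57.0% at promoters, 49.0% in introns and 48.0% between genes. The Ets core CGGAAG, searched on both strands like the others, was present at 8 of the 77 promoter centers, 10.4% (5.36 to 19.2), and at 4.68% (3.69 to 5.92) of the rest, with intervals that overlap.

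In the central 200 bp of all peaks, CAGGTG was found at 801 peaks, 52.8%, against 14.9% of windows of the same length 2 kb to either side. CAGCTG was found at 30.7% (28.5 to 33.1) against 9.14% (8.16 to 10.2), and 276 peaks held both cores. CAGATG reached 24.9% (22.8 to 27.2) against 16.7% (15.4 to 18.1). Most other classes were close to or below their flanks. CAAATG was found at 10.4% (8.98 to 12.1) against 14.3% (13.1 to 15.6), and CATATG at 2.44% (1.78 to 3.35) against 5.41% (4.66 to 6.27). CACGTG, the E-box of Myc and USF proteins, was found at 4.55% (3.61 to 5.72) against 3.00% (2.45 to 3.67), with overlapping intervals. Neither CAGGTG nor CAGCTG was present in the center of 525 peaks, and 171 held neither anywhere. The latter had a median rank of 1192, and 31 of them were multi-copy.

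The bases next to CAGGTG also differed between the center and the flanks. Among 1100 cores in the central windows, leaving out peaks with 6 or more, the base before the core was T in 6.36% (5.07 to 7.96), against 17.0% (14 to 20.6) of 505 cores in the flanks. The base after it was A in 8.64% (7.12 to 10.4) against 23.0% (19.5 to 26.8), and C in 34.1% (31.3 to 36.9) against 21.2% (17.8 to 25). Cores with A or G before and C or T after were 46.3% (43.3 to 49.2) of those in the center and 23.2% (19.7 to 27) of those in the flanks. Among the stretches printed for high-ranked peaks, those for Twsg1, Slc9a9, Camta1, Acoxl and Pik3r5 show such ends and that for Ppm1h does not. Of those printed for T cell list genes, only the Ctla4 stretch has them. Several cores in 1 window share a peak, so these counts are not independent.

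The share of peaks with a central CAGGTG was similar over the upper quintiles of ranks, at 60.2% (54.6 to 65.5), 60.7% (55.1 to 66.1) and 57.1% (51.5 to 62.5), and lower in the last ones, at 49.8% (44.2 to 55.4) and 36.3% (31.1 to 41.9). CAGCTG went from 37.2% to 20.5% in the same order. The median width fell from 1318 to 705 bp and the median GC content of the center from 50% to 45.5%, and their part in the E-box shares was not tested. Promoter shares were 6.58% (4.30 to 9.94) and 3.96% (2.28 to 6.79), with intervals that overlap. The Runx core ACCACA, found at 25.3% (23.1 to 27.5) of all centers and 15.6% (14.4 to 16.9) of flanks, was present at 22.4% (18 to 27.4) of the highest quintile and 22.8% (18.4 to 27.8) of the lowest. The Tcf core TCAAAG, found at 19.1% (17.2 to 21.1) of all centers and 13.7% (12.5 to 15.0) of flanks, was present at 18.1% (14.2 to 22.8) and 19.1% (15.1 to 23.9). The Gata core AGATAA, found at 13.6% (12 to 15.4) of all centers and 11.5% (10.4 to 12.7) of flanks, went the other way from the E-boxes along the ranks, with 10.5% (7.56 to 14.5) in the highest quintile and 17.8% (13.9 to 22.5) in the lowest, and both pairs of intervals overlap.

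**Figure D5:**
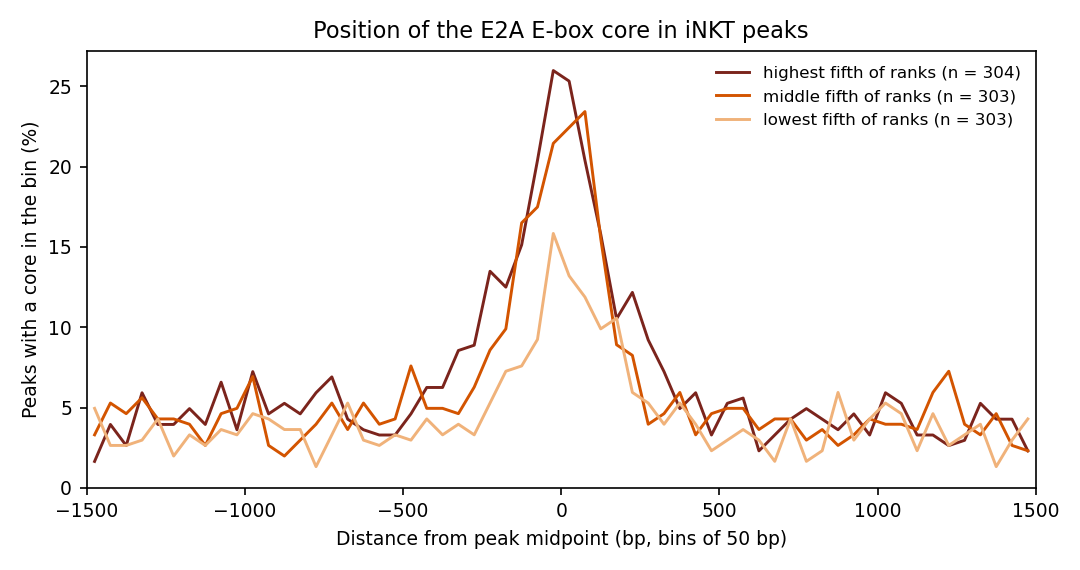
Percent of iNKT peaks with a CAGGTG core in each bin of 50 bp (y axis) by distance from the peak midpoint in bp (x axis), for the highest, middle and lowest quintile of ranks. In the bin just before the midpoint the shares are 26.0%, 21.5% and 15.8%, and the curves come close to each other away from the midpoint.

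Arrays of the CAGGTG core made up a small class of their own. Arrays of CAGCTG were not counted. The peaks by Dyrk1a (rank 6) and Fkbp11 (rank 7) held 7 and 6 copies of CAGCTG in their centers. In 40 peaks the central 200 bp held 6 or more CAGGTG cores, up to 14, while none of 3031 flanking windows did. Of these, 39 were single-copy by the median, none was at a promoter, and 30 overlapped a DP peak, a share near the 69.3% of the whole list. Their ranks ran from 12 to 1474, with 10 in the highest quintile. A median of 82.1% of their words occurred once in the assembly, against 99.3% for the other single-copy peaks. The commonest spacing between neighboring cores ranged from 6 to 32 bp between peaks, with a median of 16 bp. The highest-ranked of the CAGGTG arrays was the rank 12 peak 121 kb from Slc38a4, an amino acid transporter gene. It held 44 cores in all and 8 in its center, each 26 bp from the next. Other arrays were the peaks of Itgax, Nr4a3, Maml3, Rps6ka2 (rank 423) and Themis (rank 1307) named above. The central 200 bp of the Slc38a4 array, on the plus strand where each core reads CACCTG in capitals, shows the repeat:
Slc38a4, rank 12, chr15:96765350-96765549: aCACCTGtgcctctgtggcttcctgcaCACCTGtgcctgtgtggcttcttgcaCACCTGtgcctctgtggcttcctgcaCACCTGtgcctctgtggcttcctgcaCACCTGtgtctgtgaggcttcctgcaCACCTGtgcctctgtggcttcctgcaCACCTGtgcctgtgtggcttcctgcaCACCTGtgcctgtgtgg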

How the data were processed

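The sources name Bowtie 1.1.2, alignment to mm9 with only reads of a single best position kept, and MACS 1.4.2 with default settings for peak calling. Reads that matched several places equally well were thus dropped. The authors deposited a position and a score per peak, the score being -10 times log10 of the MACS p-value. Libraries, inputs and coverage are not analysed here. From these files, peak midpoints were placed on GENCODE M1 genes of NCBIM37, the same assembly as mm9. E-boxes and other cores were searched on both strands in the central 200 bp and in equal windows 2 kb away. Overlap with DP peaks needed 1 bp. Single-copy peaks had a median count of 1 for their 31-base words. A total of 14 checks of these functions on simulated data passed.

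The named genes are those of the 20 highest-ranked single-copy peaks, the 10 genes with most peaks, up to 6 best-ranked genes with a peak per list, and the 10 highest-ranked single-copy promoter peaks. Other named genes were chosen after their values were seen. Members and lists were chosen with earlier results of these data known. In the T cell lists 3 symbols had no match (Ptcra, Tespa1 and Spi1). Some genes are not reported here. Alternatives changed the gene window, score minimum, motif window, repeat filter and cluster gap. Python 3.11.15, numpy 2.4.6, pandas 2.3.3, scipy 1.17.1, pysam 0.24.0 and numba 0.67.0 were used.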

Additional observations from a re-analysis of the deposited data

How the results depend on the processing

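No paired analysis was possible because each group has 1 library and no result comes from a test. Of 39 alternative values for 12 results, 22 stayed within the Wilson interval or within 1.5 times the count, and 17 did not. The number of genes with a peak was 384 within 10 kb of the start and 385 with a score of 100 or more, instead of 956. The promoter share was 7.26% with all protein-coding transcript starts, and 7.39% both with all gene types and from the peak edge. The CAGGTG share was 34.7% in 100 bp, 69.5% in 400 bp, 80.9% in the whole peak and 60.5% with a score of 100 or more. The number of genes with 3 or more peaks was 0 with a score of 100 or more, which leaves 555 peaks. Within 10 kb of the start it was 15, but only 1 of these genes was among the 18, and 14 of the 15 had 3 or more multi-copy midpoints within 10 kb. The T cell list share was 6.06% within 10 kb, 32.7% within 100 kb and 6.97% with a score of 100 or more. The background for these was 1.73%, 14.5% and 1.73%. Clusters numbered 14 with a gap of 20 kb, 49 with 100 kb and 6 with a score of 100 or more. Of the 20 highest-ranked single-copy peaks, 65% overlapped a DP peak when the DP list was limited to as many of its highest-ranked peaks as the iNKT list holds. Limiting the list to single-copy peaks moved none of the values it was tried on. With unknown depth, a gene without a peak cannot be called unbound.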

Other observations

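Some high-ranked peaks lay nearest to genes of T cell biology but beyond the window by which peaks were given to genes. They were chosen after their values were seen. The nearest start to the rank 42 peak (chr1:132934446-132936046) was that of Il10, which encodes an anti-inflammatory cytokine, 18.8 kb away on the downstream side. The rank 61 peak, 17.5 kb downstream of the start of Socs3, a feedback inhibitor of cytokine receptors, headed 3 iNKT peaks within 100 kb. The rank 65 peak lay 31.1 kb upstream of Tcf7, as the only iNKT peak within 100 kb of that start. Within that window, at Slc16a5, a monocarboxylate transporter gene, the iNKT list had a peak 10.4 kb upstream at rank 40 and a promoter peak at rank 397.

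Gene families outside the lists, also chosen afterwards, ranged to both sides of the background of 4.3%. Of 1113 olfactory receptor genes, 3 held an iNKT peak, and of 327 vomeronasal receptor genes none did. None of 39 Hox genes, 67 histone genes, 51 keratin genes or 20 Tnfrsf genes held one, with intervals that all include the background. Ribosomal protein genes gave 2 of 80, or 2.50% (0.688 to 8.66). Zinc finger genes named Zfp gave 12 of 367, or 3.27% (1.88 to 5.63), and solute carriers 12 of 353, or 3.40% (1.96 to 5.85). CD antigen genes gave 6 of 87, or 6.90% (3.20 to 14.2). Of 8 Gimap genes, which encode immune GTPases and lie side by side, 2 held a peak. By chromosome, single-copy peaks ranged from 0.167 per Mb on X to 0.834 per Mb on chromosome 11.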
